A study of Mus musculus with 40 samples.

Results

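Rcan1 and Rcan2 encode regulators of calcineurin (Cn), and both were found by gene symbol, as 2 of the 17402 genes listed for the genotype experiment and 2 of the 15399 listed for the cyclosporin A (CsA) experiment. Both passed the filter on low values in each experiment. Cn is a phosphatase activated by Ca2+ and calmodulin, made of a catalytic A subunit and a regulatory B subunit, and it dephosphorylates the NFAT transcription factors, which then enter the nucleus. RCAN proteins bind Cn and restrain its phosphatase activity. Rcan1 is known as an NFAT target itself, through a promoter inside the gene that gives the Rcan1-4 transcript, so that its mRNA is widely read as a sign of Cn-NFAT signalling. Rcan2 is the family member known for abundant expression in heart and brain.

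RNA was sequenced from whole aortas of male mice, after the outer layers had been removed. In the genotype experiment the labels give all libraries the floxed gene for the Cn B subunit (CnB1-flox, Ppp3r1), and the mice received tamoxifen, 1 mg a day for 5 days. Cn-Ctl libraries are labelled Myh11-CreERT2-neg, although the study's description of its Cn-Ctl mice also includes animals with Myh11-CreERT2 and wild-type Cnb1 alleles, and SM-Cn-/- mice carried Myh11-CreERT2, whose promoter is active in smooth muscle cells (SMCs) and which tamoxifen activates. Mice were 10 to 12 weeks old at tamoxifen and were used 6 weeks later, untreated or after 2, 6, or 24 h on an angiotensin II (Ang-II) minipump (1 µg/kg/min). The CsA experiment used WT C57BL/6J males, which had either no pump or a CsA pump at 5 mg/kg/day for 5 days, and were then untreated or infused with the same dose of Ang-II for 2 or 24 h. CsA blocks the phosphatase activity of Cn and leaves the protein in place. Each library pooled 3 aortas. Groups had 3 libraries, except for 2 in untreated Cn-Ctl and 2 in Cn-Ctl at 24 h, which were replicates 2 and 3 by their labels. The study discarded the other untreated Cn-Ctl replicate because it deviated strongly in a principal component analysis. The untreated Cn-Ctl group was thus chosen after its data were seen, and its spread can be understated. For Cn-Ctl at 24 h the sources used here give no reason why replicate 1 is absent. Over genes, the median standard deviation of log2 signal was 0.213 in untreated Cn-Ctl. It was 0.272 to 0.395 in the other groups of the genotype experiment, with 0.321 in Cn-Ctl at 24 h, the other group of 2. At the same spread, a group of 2 libraries tends to give a lower median than a group of 3. These values thus cannot show by themselves whether the spread of untreated Cn-Ctl is understated. Treated Cn-Ctl, WT, and CsA mice had been kept for analysis at a systolic pressure over 130 mmHg, whereas treated SM-Cn-/- mice had not been selected in this way. The study also removed SM-Cn-/- mice whose CnB1 deletion, and CsA mice whose block of NFAT dephosphorylation in the thymus, could not be shown.

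Values are given as signal, for which the authors added 0.5 to the read number of a gene and divided it by their scaled size of the library, which comes close to reads per 1e6. The libraries held 2.73 to 10.25 M assigned reads in the genotype experiment and 18.98 to 38.9 M in the CsA experiment. The B subunit gene Ppp3r1 had a signal of 45.7 to 133.9 over the Cn-Ctl libraries and 41.8 to 117.7 over the SM-Cn-/- libraries, and it differed between untreated genotypes by -0.46 ± 0.36 on the log2 scale (SE; limma adjusted p = 0.98), so that the gene-level signal, which does not separate the floxed exons, did not tell the genotypes apart. The study itself reports PCR checks of CnB1 recombination in aortic tissue and lower CnB and CnA protein in SM-Cn-/- aortic extracts. The 7 smooth muscle markers were all measured, from Acta2 at 5679 to 26029 down to the transcription factor gene Myocd at 9.96 to 210 over the libraries. Their summed signal was 27877 and 28379 in untreated Cn-Ctl and 20361 to 23798 in untreated SM-Cn-/- libraries, and 25100 to 34355 in untreated WT and 16054 to 18111 in untreated CsA libraries. The markers of endothelium ran the other way, with sums of 317 and 434 against 546 to 714, and 356 to 611 against 912 to 1065. All 6 were measured, as were the 5 adipocyte markers, whose sums were 176 and 377 against 202 to 1116 in the first pair of groups and 238 to 452 against 1111 to 2012 in the second. Fewer cells of a type and less RNA per cell cannot be told apart in these bulk samples, and the part of these differences in the values below was not tested. The summed neuron markers (4 of 5 measured in the genotype and 5 in the CsA experiment) lay between 38.5 and 94.8 in all libraries but 2, which were untreated CsA replicate 3 (203) and CsA replicate 3 of 2 h (714). Snap25, which defines neurons, had medians of 0.316 and 0.73 and was at 132 in the latter library.

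Rcan1 (ENSMUSG00000022951) lies on the minus strand of chr16:92391953-92470867 in GRCm38. GENCODE release M21 gives it 7 transcripts, 5 of them protein-coding, whose first exons start far apart, from base 92470867 to the internal start at base 92400077. Rcan2 (ENSMUSG00000039601) lies on the plus strand of chr17:43801351-44039516 and has 7 transcripts, all coding. The signal adds up all transcripts of a gene, so that Rcan1-4 and the longer forms of Rcan1 cannot be told apart here. The RefSeq promoter windows (GRCm38.p6, 250 bases before to 50 after an annotated start) are shown for both RefSeq starts of Rcan1, since the gene responded to Ang-II, and for the most upstream of the 3 of Rcan2. Capitals mark the core of the NFAT site (GGAAA, or TTTCC where it is on the other strand), the AP-1 site TGACTCA, and the cAMP response element (CRE) TGACGTCA, searched on both strands. The motifs do not overlap each other in these windows.
Rcan1 upstream start, chr16:92466120-92466419, minus strand: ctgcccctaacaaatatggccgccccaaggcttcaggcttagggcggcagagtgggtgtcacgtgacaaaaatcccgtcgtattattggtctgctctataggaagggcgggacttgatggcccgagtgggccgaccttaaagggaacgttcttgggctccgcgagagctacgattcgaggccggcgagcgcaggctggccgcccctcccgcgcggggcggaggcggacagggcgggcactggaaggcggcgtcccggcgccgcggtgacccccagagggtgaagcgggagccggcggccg
Rcan1 internal start, chr16:92400029-92400328, minus strand: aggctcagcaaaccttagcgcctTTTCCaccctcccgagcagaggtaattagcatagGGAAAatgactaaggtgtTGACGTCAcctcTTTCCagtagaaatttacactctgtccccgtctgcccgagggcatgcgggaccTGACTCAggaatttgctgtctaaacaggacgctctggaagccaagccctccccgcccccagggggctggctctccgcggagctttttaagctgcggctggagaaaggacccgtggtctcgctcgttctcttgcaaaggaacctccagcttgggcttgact
Rcan2 upstream start, chr17:43801102-43801401, plus strand: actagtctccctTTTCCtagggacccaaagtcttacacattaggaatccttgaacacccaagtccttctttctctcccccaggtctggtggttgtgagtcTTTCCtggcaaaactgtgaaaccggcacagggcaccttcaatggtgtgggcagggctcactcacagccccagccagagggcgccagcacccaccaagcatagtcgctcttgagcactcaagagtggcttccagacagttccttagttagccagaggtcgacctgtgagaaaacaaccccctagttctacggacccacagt

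The internal window of Rcan1 held 3 NFAT cores, 1 AP-1 site, and 1 CRE, and the upstream window held none of these letters. At least 3 NFAT cores were found in 9.42% of all 32851 mouse windows, an AP-1 site in 5.2%, and a CRE in 1.79%. An AP-1 site and a CRE occurred together in 12 windows (0.0365%), and with 3 or more NFAT cores in 2 (0.00609%). This combination is the one seen in the internal window of Rcan1, which is itself among the windows counted. The shares therefore describe that window and are not a test. The upstream window of Rcan2 had 2 NFAT cores, as 26.7% of windows have at least 2. Of its other windows, chr17:43801601-43801900 had no match and chr17:43952749-43953048 had 1 AP-1 site. These matches describe the letters and not whether a factor binds there.

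**Figure D1:**
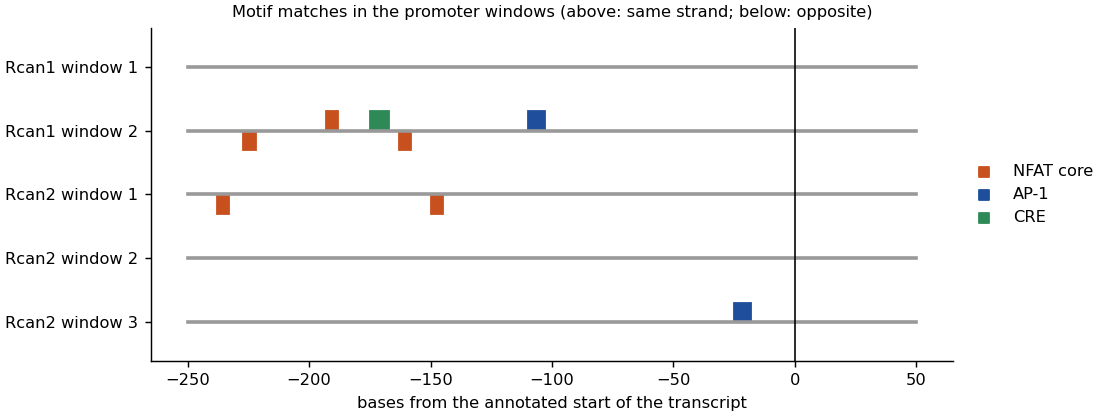
Position of the NFAT core, AP-1, and CRE matches (colored boxes, above the line on the strand of the gene, below it on the other) in the 5 RefSeq promoter windows of Rcan1 and Rcan2, in bases from the annotated start (vertical line). The 5 matches of Rcan1 all lie in its window 2, the internal start.

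The comparison of Ang-II with untreated mice asks which genes respond in the aorta. Rcan1 rose early and steeply in Cn-Ctl aortas and stayed above the untreated level at 6 and 24 h. Its signal was 27.6 and 45.4 in the untreated Cn-Ctl libraries, 368, 404, and 380 after 2 h of Ang-II, 85.0, 128, and 179 at 6 h, and 75.3 and 158 at 24 h. All treated libraries were above both untreated ones, and those of 2 h were above those of 6 and 24 h. The rise was 3.42 ± 0.36 at 2 h on the log2 scale (SE; limma adjusted p = 1.91e-06), which is 10.7-fold with a 95% interval of 6.34 to 18.1. It was 1.80 ± 0.36 at 6 h (limma adjusted p = 0.0049) and 1.61 ± 0.40 at 24 h (limma adjusted p = 0.019). Of the genes tested in these comparisons, 6.23%, 3.97%, and 5.62% passed. The later rises rest on few libraries. Without untreated replicate 2 they were 1.45 (limma adjusted p = 0.15) and 1.25 (limma adjusted p = 0.22), and without replicate 3 of 24 h the last was 1.08 (limma adjusted p = 0.31).

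From 2 h on, the Rcan1 signal of Cn-Ctl aortas came down by 1.62 ± 0.33 at 6 h (limma adjusted p = 0.010) and by 1.81 ± 0.36 at 24 h (limma adjusted p = 0.0042) on the log2 scale. These are differences of -1.62 and -1.81, in comparisons where 1.67% and 7.37% of genes passed. The step to 6 h lost its call without replicate 2 of 2 h (-1.58, limma adjusted p = 0.053), without replicate 1 of 6 h (-1.34, limma adjusted p = 0.062), and after quantile normalization (-1.35, limma adjusted p = 0.064). The step to 24 h did so without replicate 2 of 24 h (-1.28, limma adjusted p = 0.069).

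**Figure D2:**
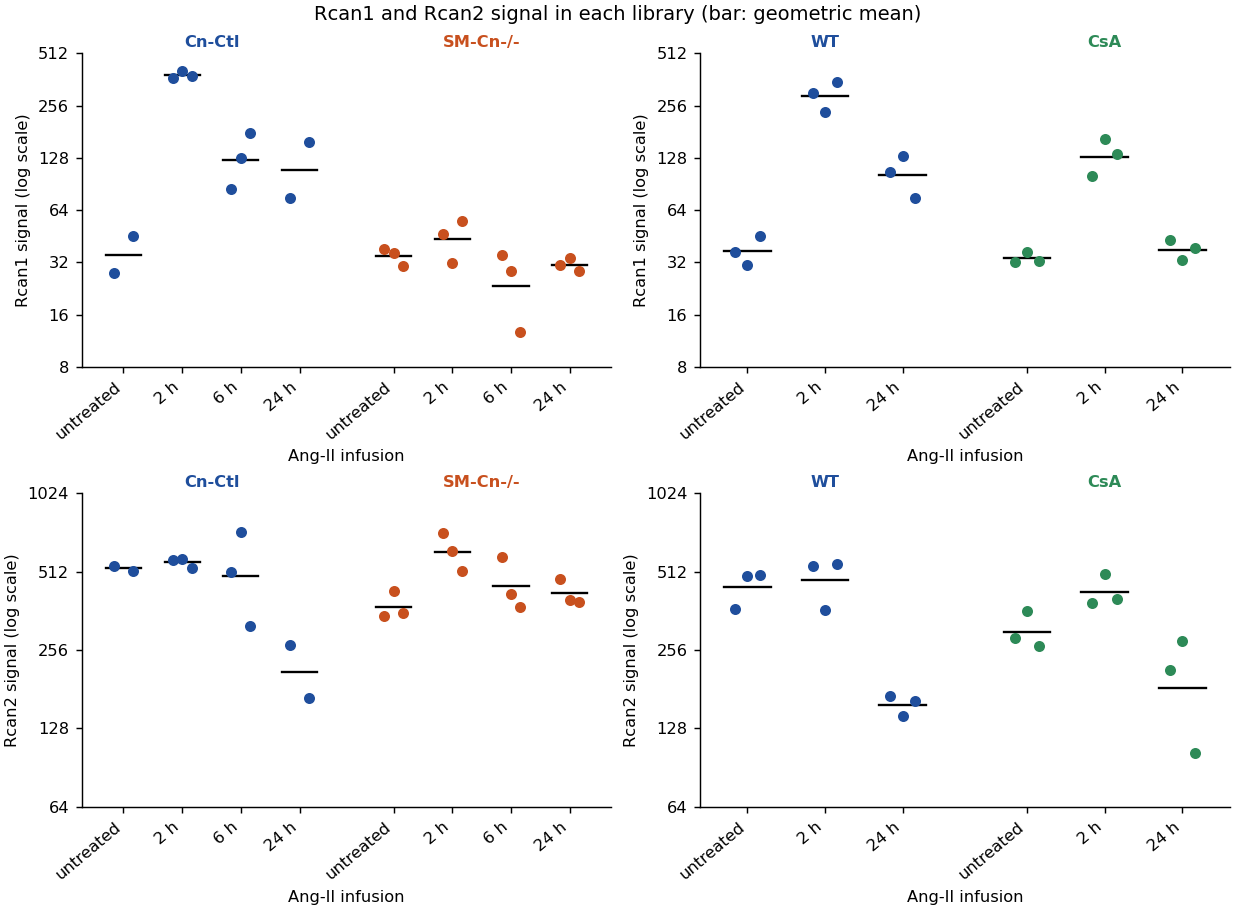
Signal of Rcan1 (top) and Rcan2 (bottom) in each library (points) by hours of Ang-II, in the genotype experiment (left) and the CsA experiment (right), on log axes, with the geometric mean of each group as a bar. The 3 Cn-Ctl libraries of 2 h lie between 368 and 404 for Rcan1, and all SM-Cn-/- libraries lie between 12.7 and 55.3. The tables were normalized separately, so that levels compare within a panel.

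In aortas with the SMC deletion, no difference of Rcan1 from untreated passed at any time. The untreated SM-Cn-/- libraries had 38.3, 36.1, and 30.4, those of 2 h 46.6, 31.7, and 55.3, those of 6 h 35.2, 28.6, and 12.7, and those of 24 h 30.7, 33.9, and 28.6. Treated and untreated libraries overlapped at every time, and the value of 12.7 came from the shallowest library, in which Rcan1 had 36 reads. The differences from untreated were 0.32 ± 0.33, -0.56 ± 0.33, and -0.16 ± 0.33 on the log2 scale, with limma adjusted p values of 0.70, 0.40, and 0.91. In fold, the 95% intervals were 0.778 to 1.99 at 2 h, 0.424 to 1.08 at 6 h, and 0.558 to 1.43 at 24 h. In these comparisons 1.13%, 2.34%, and 0.79% of genes passed. From 2 h the level differed by -0.88 ± 0.33 at 6 h (limma adjusted p = 0.15) and by -0.48 ± 0.33 at 24 h (limma adjusted p = 0.44), where 1.41% and 3.65% of genes passed. The first of these passed when replicate 1 of 6 h was left out (-1.17, limma adjusted p = 0.041).

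The untreated genotypes overlapped in Rcan1 signal, with a difference of -0.02 ± 0.36 (SE, log2; limma adjusted p = 0.997) and a 95% interval of 0.582 to 1.66 in fold. Only 0.0139% of genes passed between the untreated genotypes. Under Ang-II, Rcan1 was lower in SM-Cn-/- than in Cn-Ctl aortas at each time, with no overlap between the libraries of the genotypes. The difference was -3.13 ± 0.33 at 2 h (limma adjusted p = 3.28e-06), -2.39 ± 0.33 at 6 h (limma adjusted p = 0.00020), and -1.80 ± 0.36 at 24 h (limma adjusted p = 0.0045), which is 8.75-, 5.24-, and 3.48-fold lower. The share of genes that passed was 3.7%, 1.98%, and 4.94%. At 24 h the call rested on Cn-Ctl replicate 3, without which the difference was -1.27 (limma adjusted p = 0.20). The treated Cn-Ctl and SM-Cn-/- libraries overlapped in their smooth muscle marker sums at 2 h (26976 to 35140 and 24736 to 31168) and not at 6 h (31520 to 33569 and 22706 to 28376) or 24 h (27104 and 48733, and 23842 to 26594).

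The test of the difference in response asks whether Ang-II acted on Rcan1 differently in the 2 genotypes. The response of SM-Cn-/- minus that of Cn-Ctl was -3.10 ± 0.49 at 2 h (limma adjusted p = 0.0029, 0.513% of genes passed), -2.36 ± 0.49 at 6 h (limma adjusted p = 0.089, 0.0624%), and -1.77 ± 0.52 at 24 h (limma adjusted p = 0.13, 0.513%). The response at 6 and 24 h was thus not shown to differ by this test. DESeq2 on the recovered reads called both later differences (-2.29, adjusted p = 0.0019, and -1.91, adjusted p = 0.015). In limma the one at 6 h passed without Cn-Ctl replicate 1 (-2.64, adjusted p = 0.040) or SM-Cn-/- replicate 1 of 6 h (-2.65, adjusted p = 0.018), and the one at 24 h without Cn-Ctl replicate 2 of 24 h (-2.30, adjusted p = 0.028). The call at 2 h was lost without untreated Cn-Ctl replicate 2 (-2.75, limma adjusted p = 0.059), the lower of the 2 untreated Cn-Ctl libraries. Over the 4 times together, untreated included, the mean genotype difference of Rcan1 was -1.83 on the log2 scale (two-sided exact permutation test within times, p = 0.000125, adjusted over the 2 genes 0.00025, 40000 arrangements).

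CsA asks about the phosphatase activity rather than the protein. In WT aortas Rcan1 was highest at 2 h and intermediate at 24 h. Its signal was 36.9, 30.7, and 45.2 untreated, 304, 234, and 349 at 2 h, and 107, 132, and 74.7 at 24 h, so that no library of one time overlapped another time. The rise was 2.96 ± 0.21 at 2 h (SE, log2; limma adjusted p = 1.67e-07, 21.4% of genes passed) and 1.44 ± 0.21 at 24 h (limma adjusted p = 8.78e-05, 35%). From 2 to 24 h it fell by 1.52 ± 0.21 (limma adjusted p = 6.13e-05, 36.2%).

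CsA-pretreated aortas had 32.3, 36.5, and 32.4 untreated, 101, 163, and 134 after 2 h of Ang-II, and 42.8, 33.0, and 38.5 at 24 h. The libraries of 2 h were all above the others, and those of 24 h overlapped the untreated ones. Rcan1 thus rose at 2 h by 1.93 ± 0.21 (limma adjusted p = 2.9e-05, 20.1% of genes passed), a 3.82-fold rise with a 95% interval of 2.80 to 5.20. At 24 h it differed from untreated by 0.17 ± 0.21 (limma adjusted p = 0.65, 8.98%), an interval of 0.823 to 1.53 in fold. From 2 to 24 h it fell by 1.77 ± 0.21 (limma adjusted p = 9.78e-05, 18%).

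Before Ang-II the Rcan1 signal of CsA and WT aortas differed by -0.14 ± 0.21 on the log2 scale (limma adjusted p = 0.66), although 25.2% of all genes passed in that comparison. After 2 h every CsA library was below every WT library, with a difference of -1.16 ± 0.21 (limma adjusted p = 0.018, 1.33% of genes passed), and after 24 h again (-1.41 ± 0.21, limma adjusted p = 0.0033, 5.58%). The call at 2 h was lost without WT replicate 1 (-1.13, limma adjusted p = 0.11), WT replicate 3 (-1.03, limma adjusted p = 0.097), or CsA replicate 1 (-0.98, limma adjusted p = 0.094). Fitted on the 2 groups alone, neither passed (limma adjusted p = 0.13 and 0.064). Smooth muscle marker sums of the treated groups did not overlap at 2 h (28012 to 35043 in WT and 19752 to 25595 in CsA) and overlapped at 24 h (23590 to 32937 and 18836 to 27293).

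The response to Ang-II itself differed by -1.02 ± 0.30 at 2 h (limma adjusted p = 0.16, 0.146% of genes passed) and by -1.28 ± 0.30 at 24 h (limma adjusted p = 0.017, 9.42%). Only the later difference passed, and it was at adjusted p = 0.050 in limma without WT untreated replicate 2 (-1.14) and at 0.053 without CsA replicate 2 of 24 h (-1.18). Over the 3 times together, the CsA difference of Rcan1 was -0.91 on the log2 scale (two-sided exact permutation test within times, p = 0.0015, adjusted over the 2 genes 0.003, 8000 arrangements, smallest possible p 0.00025). The SM-Cn-/- and CsA libraries come from separately normalized tables, and the size of the genotype and CsA differences was not tested against each other.

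**Figure D3:**
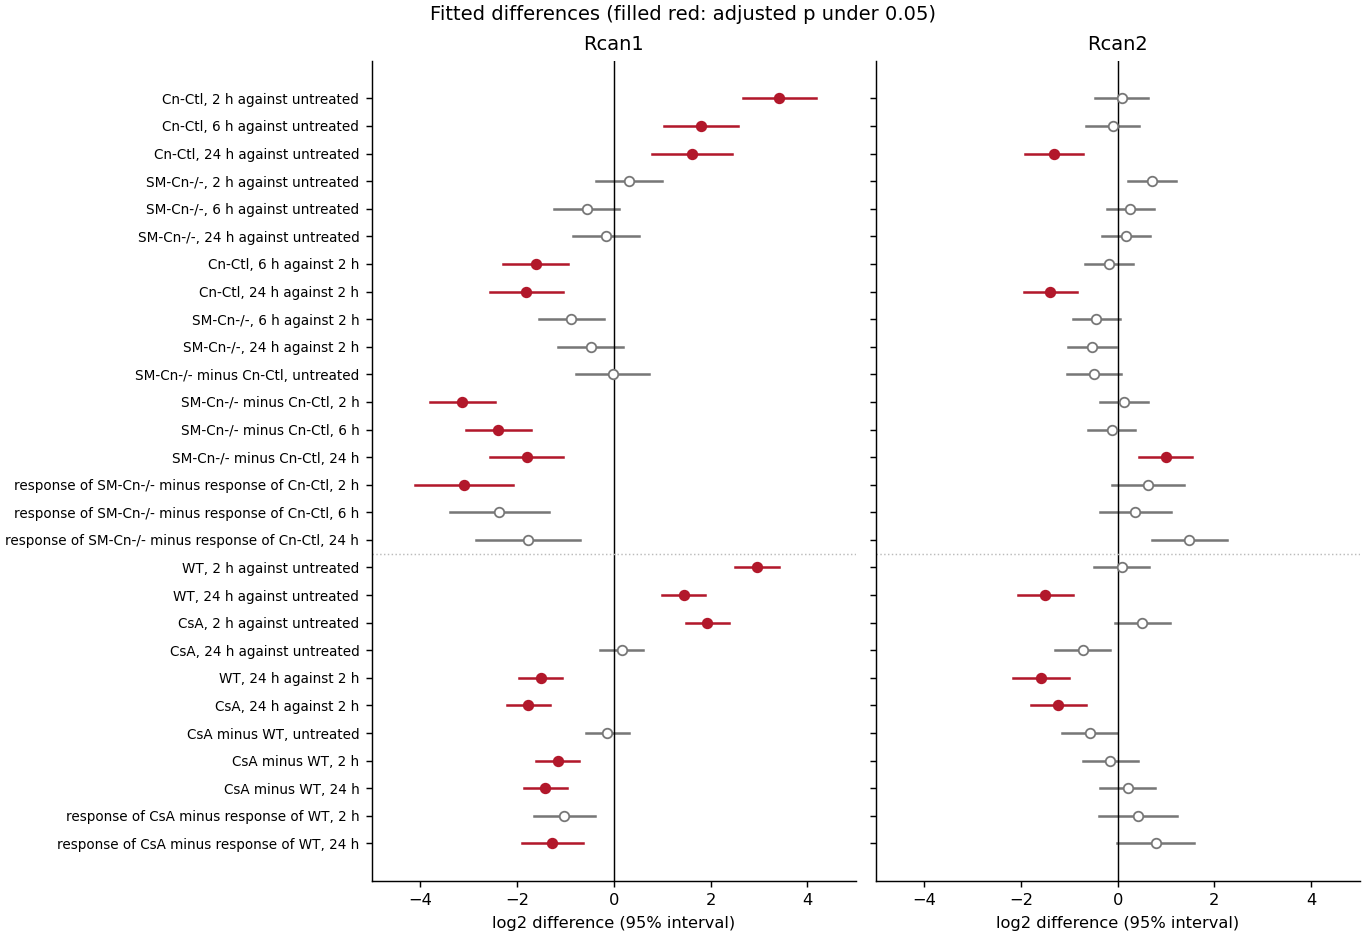
Log2 difference of Rcan1 (left) and Rcan2 (right) in the 28 comparisons, as points with 95% limma intervals, filled red where the adjusted p is under 0.05. Comparisons above the dotted line are from the genotype experiment and those below from the CsA experiment. Rcan1 passed in 17 of the 28 and Rcan2 in 6.

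Rcan2 had the higher signal of the 2 genes in every library, without correction for length. In Cn-Ctl aortas it followed another course, with values near untreated at 2 and 6 h and a lower level at 24 h. Cn-Ctl libraries had a signal of 540 and 515 untreated, 569, 576, and 529 at 2 h, 513, 730, and 317 at 6 h, and 269 and 167 at 24 h. Both libraries of 24 h were below all the others of Cn-Ctl, and those of 6 h were widely spread. The differences from untreated were 0.08 ± 0.26 at 2 h (limma adjusted p = 0.92), -0.10 ± 0.26 at 6 h (limma adjusted p = 0.91), and -1.31 ± 0.29 at 24 h (limma adjusted p = 0.0085). Rcan2 thus fell 2.48-fold by 24 h, with a 95% interval of the treated level of 0.265 to 0.611 of the untreated. From 2 h the difference was -0.18 ± 0.24 at 6 h (limma adjusted p = 0.78) and -1.39 ± 0.26 at 24 h (limma adjusted p = 0.0026). Each call at 24 h depended on single libraries. The fall from untreated missed the threshold without untreated replicate 2 (-1.28, limma adjusted p = 0.086) or 3 (-1.35, limma adjusted p = 0.061) and without replicate 3 of 24 h (-0.97, limma adjusted p = 0.19), and the fall from 2 h did so without that last library (-1.05, limma adjusted p = 0.12).

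In the more deeply sequenced WT libraries Rcan2 was 370, 492, and 496 untreated, 537, 366, and 548 at 2 h, and 170, 143, and 164 at 24 h. The libraries of 24 h lay well below and apart from the rest. The log2 difference from untreated was 0.08 ± 0.27 at 2 h (limma adjusted p = 0.86) and -1.50 ± 0.27 at 24 h (limma adjusted p = 0.00047), a 2.83-fold fall, and from 2 to 24 h it was -1.58 ± 0.27 (limma adjusted p = 0.00030).

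In SM-Cn-/- aortas Rcan2 had 347, 430, and 355 untreated, 724, 613, and 518 at 2 h, 582, 421, and 375 at 6 h, and 480, 400, and 393 at 24 h. All libraries of 2 h were above the untreated ones, and those of 6 and 24 h overlapped them. No difference passed, with 0.71 ± 0.24 at 2 h (limma adjusted p = 0.18), 0.27 ± 0.24 at 6 h (limma adjusted p = 0.62), and 0.17 ± 0.24 at 24 h (limma adjusted p = 0.85, an interval of 0.80 to 1.58 in fold). From 2 h the differences were -0.44 ± 0.24 at 6 h (limma adjusted p = 0.29) and -0.54 ± 0.24 at 24 h (limma adjusted p = 0.21). At 24 h Rcan2 was higher in SM-Cn-/- than in Cn-Ctl aortas by 0.99 ± 0.26 (limma adjusted p = 0.031), with no overlap of the libraries. That call was lost when any of 4 of the 5 libraries of 24 h was left out, with 0.65 (limma adjusted p = 0.47) without Cn-Ctl replicate 3 and 0.90 to 1.05 (limma adjusted p = 0.055 to 0.11) without an SM-Cn-/- library.

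The genotypes differed in Rcan2 by -0.49 ± 0.26 untreated (limma adjusted p = 0.97), 0.14 ± 0.24 at 2 h (limma adjusted p = 0.87), and -0.12 ± 0.24 at 6 h (limma adjusted p = 0.87). All untreated SM-Cn-/- libraries were below the untreated Cn-Ctl libraries in Rcan2, as they were in the sum of smooth muscle markers. The response differences of Rcan2 include this lower untreated level. The test of the response gave 0.62 ± 0.36 at 2 h (limma adjusted p = 0.71), 0.37 ± 0.36 at 6 h (limma adjusted p = 0.96), and 1.48 ± 0.37 at 24 h (limma adjusted p = 0.076). The last passed with DESeq2 (1.41, adjusted p = 0.0091) and after quantile normalization (1.50, limma adjusted p = 0.045), and in limma without Cn-Ctl replicate 2 of 24 h (1.82, adjusted p = 0.019), and its value was unchanged at 1.48 while its adjusted p was 0.043 and 0.024 without Cn-Ctl replicate 2 or 3 of 6 h. Over all times the genotype difference of Rcan2 was 0.13 on the log2 scale (two-sided exact permutation test within times, p = 0.50).

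CsA-pretreated aortas had an Rcan2 signal of 285, 362, and 266 untreated, 390, 503, and 401 at 2 h, and 215, 277, and 103 at 24 h. Their libraries of 2 h were above the untreated ones and those of 24 h were below those of 2 h. CsA replicate 3 of 2 h, which had the high neuron markers, was the library at 401, and so within the range of its group. The difference from untreated was 0.51 ± 0.27 at 2 h (limma adjusted p = 0.19, or 0.048 without CsA replicate 3 of 24 h) and -0.72 ± 0.27 at 24 h (limma adjusted p = 0.11, or 0.042 with -1.01 without CsA replicate 2 of 24 h), and Rcan2 fell by 1.22 ± 0.27 from 2 to 24 h (limma adjusted p = 0.0060). CsA differed from WT by -0.57 ± 0.27 untreated (limma adjusted p = 0.13, or 0.024 without CsA replicate 3 of 24 h), -0.15 ± 0.27 at 2 h (limma adjusted p = 0.79), and 0.21 ± 0.27 at 24 h (limma adjusted p = 0.69). All untreated CsA libraries were below the untreated WT libraries in Rcan2, as they were in the sum of smooth muscle markers. The response differed by 0.42 ± 0.38 at 2 h (limma adjusted p = 0.64) and 0.78 ± 0.38 at 24 h (limma adjusted p = 0.20, or 0.0070 with 1.20 when CsA replicate 3 of 24 h was left out, the library at 103). Over the 3 times the CsA difference of Rcan2 was -0.17 on the log2 scale (two-sided exact permutation test within times, p = 0.36).

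The ratio of Rcan1 to Rcan2 within a library does not depend on how libraries were scaled. Per kb of the exons of all transcripts (3.085 kb for Rcan1 and 4.372 kb for Rcan2), Rcan1 stood at 7.24% and 12.5% of the Rcan2 signal in untreated Cn-Ctl libraries. At 2 h it stood at 91.6%, 99.4%, and 102% on this length. At 6 h the ratio was 23.5%, 24.8%, and 79.9%, and at 24 h 39.7% and 134%. In SM-Cn-/- libraries it lay between 11.9% and 15.7% untreated and between 4.79% and 15.1% under Ang-II. WT libraries went from 8.83% to 14.1% untreated to 80.4% to 90.6% at 2 h and 64.7% to 131% at 24 h. CsA libraries went from 14.3% to 17.3% untreated to 36.5% to 47.3% at 2 h and 16.9% to 52.8% at 24 h. The transcripts in use are not known, and the choice of length moves all these percentages by one factor. In Cn-Ctl at 2 h the mean signal per kb was 165 for Rcan1 and 168 for Rcan2 by the longest coding transcripts, but 255 and 1041 by the shortest, so that which levels are alike depends on the length.

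On the log2 scale the ratio in SM-Cn-/- minus that in Cn-Ctl was -3.28 at 2 h, -2.29 at 6 h, and -2.81 at 24 h, and that in CsA minus that in WT was -1.02 at 2 h and -1.64 at 24 h. In each of these 5 comparisons no library of one group overlapped the other, and each gave p = 0.1 in a two-sided exact permutation test, the smallest that groups of this size allow. In WT the ratio differed by 0.07 from 2 to 24 h (exact permutation p = 0.9), while both genes fell over that time. For the untreated genotypes the difference was 0.46 (exact permutation p = 0.3), and for untreated CsA against WT 0.43 (exact permutation p = 0.1). The last is again the smallest possible p. All untreated CsA libraries were above all untreated WT libraries in the ratio, opposite in direction to the treated comparisons.

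**Figure D4:**
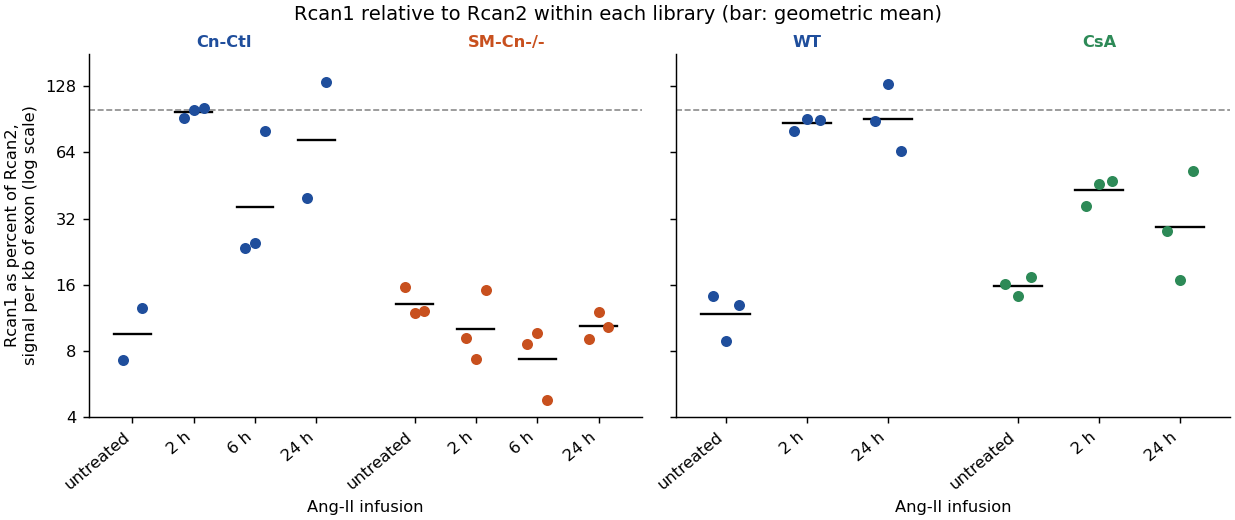
Rcan1 as a percent of Rcan2 in each library (points), both per kb of exon, on a log axis, with the geometric mean of each group as a bar and 100% as a dashed line. All SM-Cn-/- libraries lie between 4.79% and 15.7%, and the 3 Cn-Ctl libraries of 2 h between 91.6% and 102%.

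Rcan3, the other family member, was listed at a low signal of 9.54 to 32.3 over all libraries and is described for comparison only. It differed from untreated at 2 h by -0.71 ± 0.24 in WT (limma adjusted p = 0.043) and by -0.61 ± 0.28 in Cn-Ctl (limma adjusted p = 0.24), and passed only in the former. The difference at 2 h in SM-Cn-/- was -0.08 ± 0.25 (limma adjusted p = 0.92). At 6 h it was -0.80 ± 0.28 in Cn-Ctl (limma adjusted p = 0.12) and -0.80 ± 0.25 in SM-Cn-/- (limma adjusted p = 0.090). In WT its signal was 22.5, 23.5, and 28.2 untreated and 16.5, 15.2, and 13.2 at 2 h, with no overlap. In CsA it was 22.0, 21.4, and 24.9 untreated and 13.97, 12.3, and 32.3 at 2 h, where the last value came from the library with the high neuron markers and the other two lay below all untreated ones.

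The pathway around the RCAN proteins was taken as 5 lists of 49 genes in all (Cn subunits and calmodulin, NFAT factors, other proteins that bind Cn, kinases and retention factors of NFAT or RCAN, and known Cn-NFAT targets), of which 46 were measured in both experiments. Ppp3r2, Myoz3, and Nppb were not among the genes tested. The lists were chosen with earlier results of these data known, so that the shares below are descriptions and not tests of the pathway. At 2 h of Ang-II in Cn-Ctl 7 of the 46 rose and 0 fell (15.2%, against 6.23% of all genes), with a median log2 difference of 0.33 against 0.01 over all genes. In SM-Cn-/- 2 rose and 0 fell (4.35%, against 1.13%), in WT 15 rose and 3 fell (39.1%, against 21.4%), and in CsA 17 rose and 4 fell (45.7%, against 20.1%). Between treated genotypes at 2 h, 7 were lower in SM-Cn-/- and 0 higher (15.2%, against 3.7%). Between CsA and WT at 2 h 0 passed (limma), with a median log2 difference of -0.12. Only 1.33% of all genes passed there, so that this count of 0 also says little. Of the response differences at 2 h, 2 of the 46 passed for genotype (4.35%, against 0.513% of all genes) and 0 for CsA (limma), where 0.146% of all genes passed and so a count of 0 says little about these genes. At 24 h against untreated, 3 rose in Cn-Ctl (6.52%, against 5.62% of all genes) and 0 passed in SM-Cn-/- (limma, 0.79% of all genes). In WT 11 rose and 5 fell at 24 h (34.8%, against 35%), and in CsA 3 rose and 1 fell (8.7%, against 8.98%). These shares of 24 h were close to those of all genes, and the count of 0 again says little.

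Of the 7 measured genes of Cn subunits and calmodulin, 0 passed at 2 h in Cn-Ctl or SM-Cn-/- (limma, 6.23% and 1.13% of all genes), 1 rose in WT (21.4% of all genes passed), and 3 rose in CsA (20.1%). Ppp3cc, a catalytic subunit listed at a low signal, rose in WT at 2 h (0.77, limma adjusted p = 0.00032) and 24 h (0.89, limma adjusted p = 5.09e-05) and in CsA at 2 h (0.60, limma adjusted p = 0.0036) and 24 h (0.66, limma adjusted p = 0.0049). Of the 5 NFAT factors, Nfat5, which is not regulated by Cn, was the only one to rise in Cn-Ctl at 2 h (0.88, limma adjusted p = 0.0013). In WT at 2 h Nfatc2 (1.10, limma adjusted p = 7.99e-05), Nfat5 (0.64, limma adjusted p = 0.0054), and Nfatc1 (0.59, limma adjusted p = 0.0067) rose and Nfatc4 fell by 0.46 (limma adjusted p = 0.0017), and the same 4 genes passed in CsA at 2 h in the same directions, by 0.86, 0.69, 0.70, and -0.28.

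Among the other proteins that bind Cn, Myoz2, a calsarcin that tethers Cn at the Z-disc of striated muscle, had the largest change at 2 h in Cn-Ctl. It rose at 2 h by 3.36 ± 0.24 in Cn-Ctl (limma adjusted p = 2.01e-08), 1.62 ± 0.22 in SM-Cn-/- (limma adjusted p = 0.00033), 2.36 ± 0.33 in WT (limma adjusted p = 9.68e-05), and 1.52 ± 0.33 in CsA (limma adjusted p = 0.0049). Its response at 2 h was smaller in SM-Cn-/- by 1.74 ± 0.32 (difference -1.74, limma adjusted p = 0.012) and differed by -0.85 ± 0.46 under CsA (limma adjusted p = 0.43). Lmcd1, a LIM protein that binds Cn, was lower in SM-Cn-/- than in Cn-Ctl at 2 h (-1.52, limma adjusted p = 0.00070) and 6 h (-1.19, limma adjusted p = 0.012), and lower in CsA than in WT untreated (-1.05, limma adjusted p = 0.0022) and at 24 h (-1.31, limma adjusted p = 0.0033). Among the 13 kinases and retention factors, at 2 h in WT Dyrk1a (0.64, limma adjusted p = 0.0011), Csnk1d (0.48, limma adjusted p = 0.00042), Csnk1e (0.47, limma adjusted p = 0.0019), and Tab2 (0.36, limma adjusted p = 0.0099) rose, whereas in Cn-Ctl Csnk1e (0.80, limma adjusted p = 0.043) was the only one to pass and in SM-Cn-/- 0 did (limma). In CsA 5 rose, these 4 among them (by 0.46, 0.50, 0.60, and 0.31). Over all genes the shares that passed at 2 h were 21.4% for WT, 20.1% for CsA, 1.13% for SM-Cn-/-, and 6.23% for Cn-Ctl.

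Of the 13 measured genes known as Cn-NFAT targets, 4 rose in Cn-Ctl at 2 h, where 6.23% of all genes passed, namely Ptgs2, the inducible cyclooxygenase (4.45 ± 0.55, limma adjusted p = 1.26e-05), the metalloprotease Adamts1 (2.62 ± 0.28, limma adjusted p = 1.91e-06), the nuclear receptor Nr4a1 (1.95 ± 0.26, limma adjusted p = 2.41e-05), and the cytokine Il6 (limma adjusted p = 0.046). Il6 had 0 reads in both untreated libraries and a signal of 0.499 to 5.12 at 2 h, so that the size of its fitted change depends on the 0.5 added. In SM-Cn-/- only Adamts1 passed at 2 h (1.53, limma adjusted p = 0.0025, 1.13% of all genes), and in WT and CsA 6 rose each, where 21.4% and 20.1% of all genes passed. Myh7, a myosin chain of striated muscle, fell in CsA at 2 h (limma adjusted p = 0.014), from a signal of 2.41 to 52.3 untreated to 0.0668 to 1.184. The summed markers of cardiac muscle, all 5 measured, went from 128 to 1386 in the untreated CsA libraries to 29.4 to 80.1 at 2 h, and their part in this fall was not tested. Nr4a1 shared with Rcan1 a response at 2 h that differed between genotypes (-2.13 ± 0.34, limma adjusted p = 0.0033). Its signal was 143.7 to 317.7 in Cn-Ctl and 45.7 to 62.6 in SM-Cn-/- libraries at 2 h, and 47.7 to 67.9 in the untreated libraries of both. Under CsA its response at 2 h differed by -0.50 ± 0.50 (limma adjusted p = 0.68). At 24 h 3 of the 13 targets were lower in CsA than in WT and 0 higher, where 5.58% of all genes passed. These were Ptgs2 (-2.76, limma adjusted p = 0.0042), Il6 (limma adjusted p = 0.017, a signal of 0.0238 to 1.55 against 1.69 to 6.33), and Spp1 (-1.67, limma adjusted p = 0.0071), the gene for osteopontin. The summed markers of macrophages, all 5 measured, were 103 to 125 in CsA and 127 to 179 in WT at 24 h. Their part in these differences was not tested.

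To find genes with a like course, the Pearson correlation of the group means of log2 signal with each Rcan gene was averaged over the 2 experiments, with 8 and 6 group means, among 10347 genes with a mean signal of at least 5 in both. Group means of a table share its libraries and scaling, and the values are descriptions. Few of the genes stayed among the 8 most like when Spearman's rho was used in place of Pearson's r. Of the 8 genes most like Rcan1, 7 are described, which were Abl2, a tyrosine kinase (mean r = 0.976), the phosphodiesterase Pde4b (0.976), Dnajb2 (0.973), the prolyl hydroxylase subunit P4ha1 (0.972), Opa3 (0.972), Hspa4l (0.972), and the splicing factor Sfpq (0.968). At 2 h their group means lay 0.86 to 2.03 above untreated on the log2 scale in Cn-Ctl, against 0.041 to 0.43 in SM-Cn-/-. In the CsA experiment the same differences were 0.67 to 1.66 for WT and 0.42 to 1.08 for CsA. Each changed less than Rcan1 at 2 h in Cn-Ctl, WT, and CsA. The 8 genes most like Rcan2 were Acap2 (mean r = 0.974), Lrpap1 (0.968), the connexin gene Gja6 (0.967), Atp11b (0.963), Pgm5 (0.962), Nxt2 (0.961), the fibulin Fbln7 (0.959), and Mgea5 (0.956). At 24 h their group means stood at -3.46 to -0.54 from untreated in Cn-Ctl, against -0.20 to 0.28 in SM-Cn-/-. For WT they stood at -2.06 to -0.32, and for CsA at -0.97 to -0.065.

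**Figure D5:**
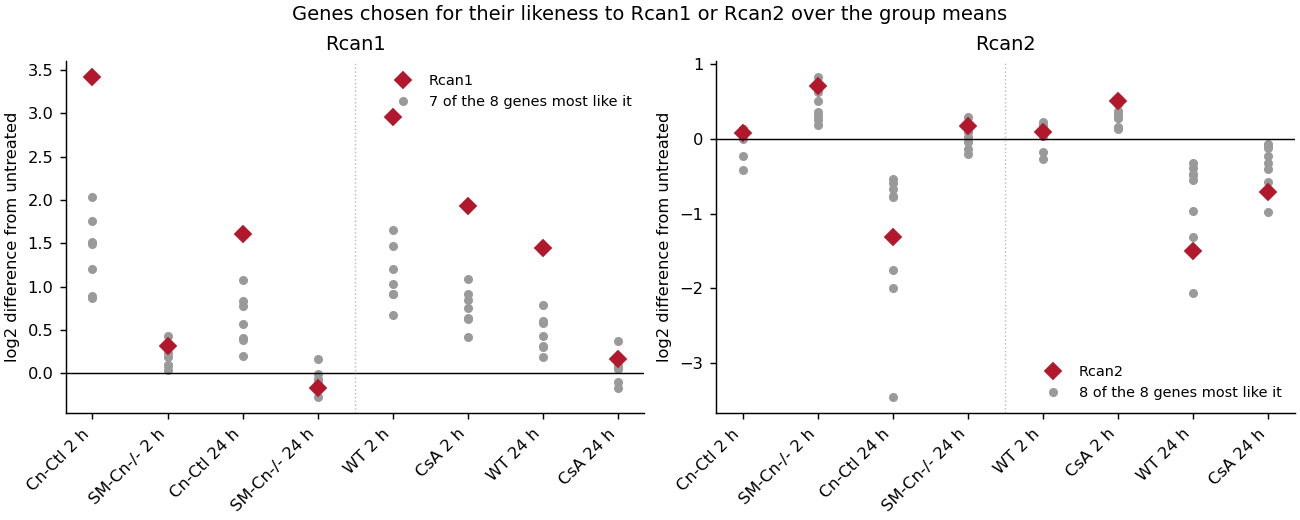
Log2 difference of the group means from untreated at 2 and 24 h for Rcan1 (left) and Rcan2 (right, red diamonds) and for 7 and 8 of the genes chosen as most like each (gray points), with the genotype experiment left of the dotted line. The Rcan1 set was highest in Cn-Ctl and WT at 2 h and the Rcan2 set lowest in Cn-Ctl and WT at 24 h, which their choice used.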

How the data were processed

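Aortic RNA-seq libraries of the genotype experiment (22) and the CsA experiment (18) were put into groups from the labels, by time on Ang-II and by genotype or pretreatment. The sources name Bowtie 0.12.7, RSEM 1.16, and GRCm38, an oligo-dT protocol, and pools of 3 aortas. The deposited values are a signal: the authors divided reads plus 0.5 by a library size scaled in a way not given in the sources used here. With the lowest value of a library taken as 0.5 reads, 100% of values were whole reads within 0.01, and these recovered reads served edgeR 4.0.16 and DESeq2 1.42.0 as alternatives.

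Genes were matched to GENCODE M21 for biotype, and protein-coding genes with a signal of at least 1 in at least 2 libraries were tested (14424 and 13738, the latter of 13741). Genes of another biotype (2952 and 1643) or none (26 and 15) were left out. limma 3.58.1 (R 4.3.3) was applied to log2(signal + 0.5), separately in each experiment, with group means as coefficients and an intensity trend, and p-values were adjusted by Benjamini-Hochberg over all genes tested. A gene passed at an adjusted p under 0.05, and rose or fell are used of such genes. Fold changes are on the log2(signal + 0.5) scale. Nothing says that libraries of a group came from separate cohorts beyond their pools of animals, so that p-values measure the spread between these pools. Recovered reads of Rcan1 were 36 to 6787 and of Rcan2 645 to 13135 per library. Genotype and CsA differences over all times and the Rcan1 to Rcan2 ratio were tested by exact permutation. The fit was tested on simulated reads.

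Rcan1, Rcan2, Ppp3r1, up to 4 passing genes per list and comparison, and the 8 genes most like each member were to be named, of which some items are not reported here. The members and lists were chosen with earlier results of these data known. Alternatives were other tests, scalings, pseudocounts (0.1 and 2), filters, variance models, a replicate block, and leaving out each library.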

Additional observations from a re-analysis of the deposited data

Results flagged for a closer look

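The response of Rcan1 to 2 h of Ang-II differed between the genotypes in a test of the difference itself, with -3.10 on the log2 scale for SM-Cn-/- minus Cn-Ctl (limma interaction, adjusted p = 0.0029). The response of Rcan1 to 24 h of Ang-II differed between CsA and WT in the same kind of test, with -1.28 on the log2 scale (limma interaction, adjusted p = 0.017). No group had 4 or more libraries, so that single libraries were not tested as outliers.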

How the results depend on the processing

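Each of the 28 differences of Rcan1 and of Rcan2 was recomputed under 11 alternatives and without each library in turn. With a library left out, 552 values of Rcan1 kept their direction and their side of the threshold, 13 lost a call, 4 gained one, and 3 changed sign, against 549, 8, 7, and 8 for Rcan2. Under the other alternatives, which include another pseudocount for the mean over all times, 303 values of Rcan1 held, 5 lost a call, and 2 gained one, and for Rcan2 296 held, 4 lost a call, 5 gained one, and 5 changed sign. The cause of the changes was not tested, other than fewer libraries where groups were fitted alone.

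With quantile normalization Rcan1 from 2 to 6 h in Cn-Ctl lost its call (-1.35), Rcan2 passed at 24 h in CsA against untreated (-0.82) and in the response difference between genotypes at 24 h (1.50), and Rcan2 changed sign without a call in Cn-Ctl at 2 h (-0.34) and from 2 to 6 h (0.038), between genotypes at 6 h (0.027), in WT at 2 h (-0.19), and between CsA and WT at 2 h (0.055). DESeq2 called the response differences between genotypes for Rcan1 at 6 h (-2.29) and 24 h (-1.91) and for Rcan2 at 24 h (1.41). Fitted on the compared groups alone, calls were lost for Rcan1 in Cn-Ctl at 6 h (1.80) and 24 h (1.61) and for CsA against WT at 2 h (-1.16) and 24 h (-1.41), and for Rcan2 in Cn-Ctl at 24 h (-1.31), between genotypes at 24 h (0.99), and from 2 to 24 h in CsA (-1.22), and Rcan2 passed between untreated CsA and WT (-0.57). Without an intensity trend the Rcan2 genotype difference at 24 h lost its call (0.99).

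With the replicate number as a block, the Rcan2 response difference between genotypes at 24 h passed (1.48, limma adjusted p = 0.028) and no other call of the 2 genes changed. Libraries with the same number did not deviate together (median r = 0.0587 and -0.0283 over pairs in the 2 experiments), so that they share only a number.

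Leaving out 1 library at a time, the values of Rcan1 in Cn-Ctl ranged from 1.45 to 2.16 at 6 h, 1.08 to 2.14 at 24 h, -1.88 to -1.34 from 2 to 6 h, and -2.34 to -1.28 from 2 to 24 h, and in SM-Cn-/- from -1.17 to -0.45 from 2 to 6 h. Between genotypes Rcan1 ranged from -0.38 to 0.33 untreated and -2.33 to -1.27 at 24 h, and its response difference from -3.46 to -2.75 at 2 h, -2.72 to -1.93 at 6 h, and -2.30 to -1.24 at 24 h. Between CsA and WT it ranged from -0.27 to 0.00173 untreated and -1.33 to -0.98 at 2 h, and its response difference from -1.50 to -1.09 at 24 h. The values of Rcan2 in Cn-Ctl ranged from -0.39 to 0.21 at 6 h, -1.66 to -0.97 at 24 h, -0.47 to 0.13 from 2 to 6 h, and -1.74 to -1.05 from 2 to 24 h. Between genotypes they ranged from -0.44 to 0.16 at 6 h and 0.65 to 1.34 at 24 h, with a response difference of 1.14 to 1.83 at 24 h. In WT Rcan2 ranged from -0.054 to 0.27 at 2 h, in CsA from 0.39 to 0.64 at 2 h and -1.01 to -0.30 at 24 h, between CsA and WT from -0.71 to -0.48 untreated and -0.086 to 0.62 at 24 h, and its response difference at 24 h from 0.49 to 1.20. The log2 ratio of Rcan1 to Rcan2 from 2 to 24 h changed sign, with ranges of -1.30 to 0.45 in Cn-Ctl, -0.18 to 0.35 in SM-Cn-/-, and -0.20 to 0.31 in WT. With Spearman's rho in place of Pearson's r, 1 of the 8 genes most like Rcan1 and 2 of the 8 most like Rcan2 remained.

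The genotype experiment is limited by its lower depth and by Cn-Ctl groups of 2 libraries, untreated and at 24 h. Its untreated Cn-Ctl group is also limited by the discarded replicate. All Cn-Ctl differences from untreated and all response differences between genotypes use that group.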
